A study of Homo sapiens with 2 samples.

Results

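Formins are the actin nucleators examined here, in the peak list of a ChIP-seq experiment with an antibody to methylated ERG (mERG). The members were 10 formin genes, DAAM1, DAAM2, DIAPH1, DIAPH2, DIAPH3, FMN1, FMN2, FMNL2, FHOD3 and INF2, and a peak was counted for a formin when the list gave that gene's name to it. By this rule 12 of the 18070 peaks belonged to formins, and they named 3 of the 10 genes. DAAM1 had 8 peaks, DIAPH1 and FMN1 had 2 each, and the other 7 formins had 0.

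The chromatin came from VCaP, a prostate cancer cell line in which the TMPRSS2-ERG fusion drives expression of the ETS transcription factor ERG, grown in regular medium without a named treatment. The series has 1 library of the mERG ChIP and 1 control library, whose labels name both an input and an IgG antibody, so that which of these it was is not settled. The study asked where in the genome ERG methylated by EZH2 is found, and DAAM1 was among the genes it assayed for joint occupancy by ERG and EZH2. The paper picked the genes of that assay because their ERG and EZH2 peaks in VCaP cells were strong and overlapped. It describes the assayed sites as gene promoters. The choice of DAAM1 was thus not independent of ERG binding in this cell line. A peak here is a region where the antibody recovered more DNA than the peak caller's background, and the list alone does not separate methylated ERG from anything else the antibody may bind.

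With 1 library per group there was no replicate, so no difference between peaks or genes was tested. Read depth is unknown from the list, and the intervals given below cover counting error only. Peak strength is the deposited score, taken here as -10 times the log10 of the peak caller's p-value because its lowest value in the list, 33.0, is what a p-value of 5e-04 gives on that scale; no source used here states it. A higher score means stronger evidence for a peak, not a larger fold enrichment. A gene with 0 peaks is one where no peak was detected at this depth.

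Formins build unbranched actin filaments. Their formin homology domains take up profilin-bound actin and add it to the growing end, and most members are held inactive by contact between their own ends until they are activated. DAAM1 and DAAM2 bind Dishevelled and act in the planar cell polarity arm of Wnt signalling, and the DIAPH proteins are the diaphanous formins. The filaments serve filopodia, stress fibres, cell division and cell movement.

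The sequence under a formin peak is shown for the strongest peak of FMN1, as 201 bp centred on the peak, on the plus strand of hg19. Capitals mark GGAA or its reverse complement TTCC, a common core of the motif that ETS factors read and the only form sought here. The region is chr15:33350667-33350867 in intron 6 of FMN1.
FMN1 peak 1: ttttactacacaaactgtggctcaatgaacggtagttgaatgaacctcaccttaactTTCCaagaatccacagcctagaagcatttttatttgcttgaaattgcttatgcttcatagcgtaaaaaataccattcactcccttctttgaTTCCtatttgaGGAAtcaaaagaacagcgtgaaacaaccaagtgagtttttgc
A pair of DAAM1 windows, chosen after the values were seen, is given because one is the peak closest to a DAAM1 start site and the other is the second strongest. They lie at chr14:59723680-59723880 in intron 1 and chr14:59779068-59779268 in intron 3, again on the plus strand of hg19.
DAAM1 peak 4: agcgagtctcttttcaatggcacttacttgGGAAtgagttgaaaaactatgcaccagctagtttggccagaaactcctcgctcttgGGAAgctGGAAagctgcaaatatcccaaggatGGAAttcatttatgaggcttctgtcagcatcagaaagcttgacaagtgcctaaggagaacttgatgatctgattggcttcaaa
DAAM1 peak 6: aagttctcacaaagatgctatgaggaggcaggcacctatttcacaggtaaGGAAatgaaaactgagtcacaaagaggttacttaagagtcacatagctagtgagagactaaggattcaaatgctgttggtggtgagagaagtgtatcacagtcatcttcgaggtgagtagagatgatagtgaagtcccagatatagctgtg
Peak 4 held 4 matches, all of them as GGAA on the plus strand, and the nearest was centred 5.5 bp from the middle of the peak. The second strongest DAAM1 peak held 1 match, 48.5 bp away, and the FMN1 window held 3, the nearest 41.5 bp away.

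GGAA or TTCC, sought on both strands, was present within 100 bp of the centre of 12 of 12 formin peaks (100%, Wilson 95% interval 75.7 to 100%). It was present in 83.8% of all peaks over windows of the same length, so the short word is common and its presence describes the windows without marking a bound site. The formin windows held a median of 2 matches, as did all peaks. The longer ETS core CCGGAAGT, with at most 1 mismatch outside GGAA, was in 0 of 12 formin windows (interval up to 24.3%) and in 2.62% of all windows. The GC content of the formin windows had a median of 38.3%, the same as over the whole list, and ran from 29.4% at FMN1 peak 2 to 49.3% at DAAM1 peak 1.

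DAAM1, the Dishevelled-binding formin of planar cell polarity, carried 8 of the 12 formin peaks. The gene (ENSG00000100592, chr14:59655364-59838123, plus strand) is 182.8 kb long, and the list measures distances from 2 of its start sites, an upstream one at 59655381 and a downstream one at 59730159, which lies in the second exon of the long transcript. All 8 peaks lay in introns of the long transcript, which has 24. They were spread over the gene, from 6.93% to 91.6% of its length, with gaps of 10.4 to 38.1 kb between neighbours.

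Intron 1, which separates both start sites, held 4 of the 8 peaks. Peak 1 (chr14:59667901-59668173) had a score of 45.6 and lay 12656 bp downstream of the upstream start. Peak 2 (chr14:59686313-59686638) was the weakest formin peak, with a score of 33.3, and lay 31094 bp downstream of the same start. Both were outside annotated repeats. Peak 3 was the strongest formin peak, with a score of 50.7, and its distance to the downstream start was -16.7 kb, the minus sign meaning upstream. Its centre lay in a LINE repeat. Peak 4 (chr14:59723678-59723882), with a score of 35.2 and a distance of -6379 bp, was the formin peak closest to any start site. Intron 1 spans 74.7 kb, or 40.9% of the gene, so 4 of 8 peaks is near its share of the length.

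The other 4 DAAM1 peaks lay downstream of both starts. In intron 3, peak 5 (chr14:59761731-59762062) had a score of 42.3 at 31737 bp from the downstream start. Peak 6 (chr14:59778911-59779425), also in intron 3, was the widest formin peak at 515 bp, with a score of 49.8 at 49009 bp, and was centred on a MIR element, a SINE repeat. Intron 3 makes up 13.1% of the gene. Peak 7 (chr14:59803688-59803873) in intron 15 was the narrowest formin peak at 186 bp, with a score of 35.9 at 73621 bp, and was centred on an L3b LINE. Peak 8 (chr14:59822566-59822866) in intron 20 had a score of 35.6 at 92557 bp, and its centre was 0.665 kb from the nearest annotated exon. No DAAM1 peak was centred in an exon or assigned to a promoter, and introns make up 96.76% of the gene.

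The scores of DAAM1 ran from 33.3 to 50.7 with a median of 39.1. The strongest ranked 4315 among the 18070 peaks, above 76.1% of the list, and 4 of the 8 were at or above the median of all peaks, 40.9. The strongest and second strongest lay 65.8 kb apart on either side of the downstream start.

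DAAM1 was set against its own surroundings. Over its body there were 4.38 peaks per 100 kb, whereas all protein-coding gene bodies together held 1.28 per 100 kb. At that density a gene of its length would hold 2.35 peaks, and at the density of gene bodies on chromosome 14 alone it would hold 1.52. Protein-coding genes of over 100 and up to 200 kb held a mean of 2.77 peaks and a median of 0. In the stretches of equal length directly upstream and downstream of the gene there were 0 peaks. The same held for DAAM2, DIAPH1, DIAPH2, DIAPH3 and INF2, so empty flanks were not particular to DAAM1. Of all peak centres in the list, 92.8% lay in protein-coding gene bodies. The nearest peak outside the gene was 323.4 kb downstream and was named for RTN1, and on the upstream side the nearest was 811.6 kb away. Within 1 Mb of the gene, 7 of 17 other protein-coding genes were named by a peak.

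Several peaks in 1 gene were not rare in the list. Of the 5011 genes named, 567 (11.3%) had at least 8 peaks, and the median was 2. Among protein-coding genes over 100 kb, 7.39% had at least 8 peaks, the background against which the 8 peaks of DAAM1 are read.

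DIAPH1, a diaphanous formin, had 2 peaks, both in intron 1 of 27. The gene (ENSG00000131504, chr5:140894583-140998622, minus strand) is 104.0 kb long, and intron 1 makes up 29.4% of it. Peak 1 had a score of 43.2 at 7.23 kb downstream of the start and was centred on a SINE repeat. Peak 2 (chr5:140978236-140978507) had a score of 34.2 at 20251 bp and lay outside repeats. Of the pair only peak 1 was above the list median. There was no other peak in the gene, and the nearest outside it was 513.6 kb away and named for NDFIP1. The surroundings are gene-dense, and 2 of 84 other protein-coding genes within 1 Mb were named by a peak.

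FMN1, a formin that acts at cell-cell junctions, also had 2 peaks, both in intron 6 of 20. The gene (ENSG00000248905, chr15:33057745-33486915, minus strand) is 429.2 kb long, and the list measured from an internal start site at 33360233. Peak 1 (chr15:33350626-33350909) had a score of 38.0 at 9466 bp from that start, outside repeats. Peak 2 (chr15:33317201-33317389) had a score of 35.4 at 42938 bp, centred on an L1ME3C LINE. Both were below the list median. A further 2 peaks lay in intron 16 of FMN1 but carried the name LOC100131315, whose start site was closer by the list's measure: chr15:33163478-33163736 with a score of 36.0 and chr15:33172407-33172621 with a score of 36.5. Counting these, FMN1 held 0.932 peaks per 100 kb. Gene bodies on chromosome 15 were rich in peaks, at 2.54 per 100 kb, while protein-coding genes of over 200 and up to 500 kb held a mean of 3.45 peaks each over all chromosomes.

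As 1 set, the 12 formin peaks had a median score of 36.97 (95% order-statistic interval 35.2 to 45.6), and all peaks had a median of 40.9. The interval treats the 12 peaks as independent although 8 of them lie in DAAM1, so it does not serve to compare the medians. None of the 12 was above the 90th percentile of the list, 64.3, while the highest score of the list was 592.2. The formin peaks were 186 to 515 bp wide with a median of 292.5 bp, and the list had a median of 400 bp. All 12 lay in introns (100%, Wilson 95% interval 75.7 to 100%), where 87.6% of all peaks lay. Introns make up 96.76% of DAAM1, 94.43% of DIAPH1 and 96.85% of FMN1, so the share is near what the structure of these genes gives. A repeat covered the centre of 5 of 12 (41.7%, interval 19.3 to 68.0%), close to the 42.4% of the whole list, with 3 in LINEs and 2 in SINEs. Within 10 kb of a start site there were 3 of 12 (Wilson 95% interval 8.89 to 53.2%) and 20.1% of all peaks, and 1 of the 3 belonged to each of DAAM1, DIAPH1 and FMN1. The absolute distance to a start had a median of 25.7 kb, and over all peaks it was 27.8 kb.

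The share of formins named by a peak, 3 of 10 (30.0%), is read against 20.4% of all protein-coding genes. Since a long gene offers more room, the closer comparison is with long genes: 3 of the 9 formins over 100 kb (33.3%) were named, and 36.3% of all protein-coding genes over 100 kb were. The formin share was near this background, and nothing about formins as a family follows from it.

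**Figure D1:**
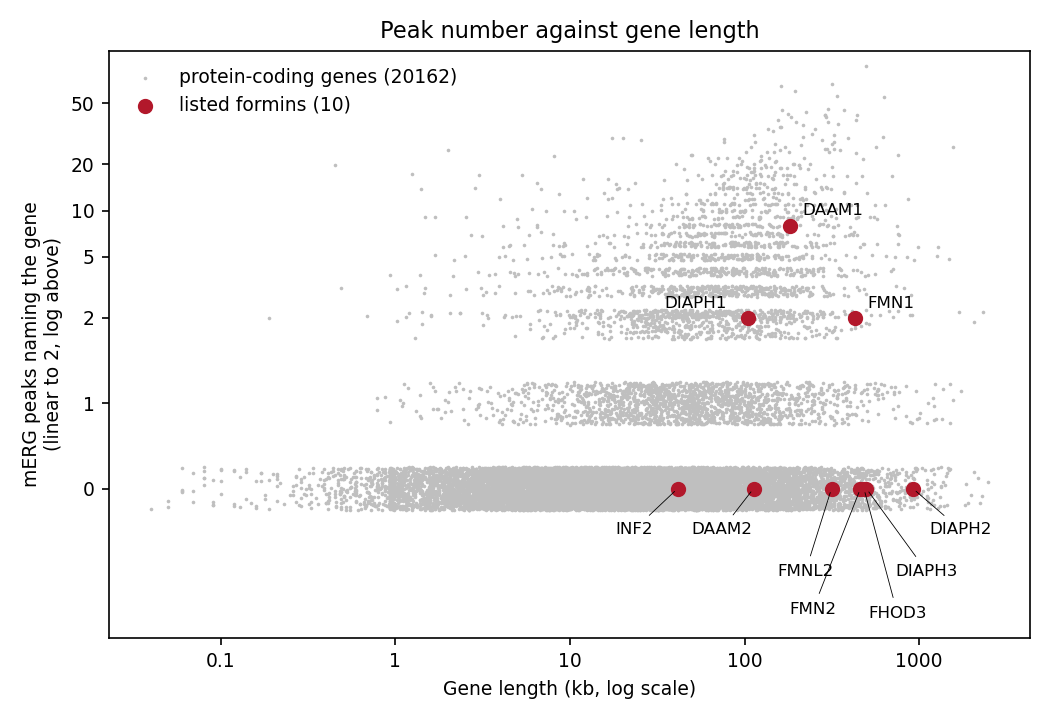
Number of peaks naming each protein-coding gene (vertical axis, linear to 2 and log above) against gene length in kb (horizontal log axis), with grey points spread slightly in height so that equal counts can be seen and the 10 formins as red points. DAAM1 stands at 8 peaks, DIAPH1 and FMN1 at 2, and the other 7 formins at 0, among many genes of like length that also have 0.

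No peak was named for DAAM2, DIAPH2, DIAPH3, FMN2, FMNL2, FHOD3 or INF2. DAAM2, the paralogue of DAAM1, is 112.6 kb long and had 0 peaks in its body. The nearest peak was 213.1 kb downstream and named for MOCS1. DIAPH2, linked to ovarian function, is the longest of the set at 920.3 kb and lies on the X chromosome, where the whole list had 30 peaks. It had 0 peaks in its body and 0 within 1 Mb, and would hold 11.8 at the density of all gene bodies but 0.471 at that of gene bodies on its own chromosome. INF2, which both builds and severs filaments, is the shortest at 41.4 kb and had 0 peaks, the nearest being 837.4 kb away. It shares chromosome 14 with DAAM1.

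DIAPH3, a diaphanous formin of cell division and filopodia, is 498.3 kb long and had no peak under its own name. A peak in its body, chr13:60507893-60508093 with a score of 33.3, was named for the antisense gene DIAPH3-AS1. It was the only peak in or within 1 Mb of DIAPH3. FHOD3, a formin of the heart muscle sarcomere, held a peak at chr18:34232081-34232329 with a score of 43.6, named for KIAA1328, and 6 peaks lay within 1 Mb upstream. The peaks inside DIAPH3 and FHOD3 were intronic and outside repeats. With gene bodies in place of names, 5 of 10 formins held a peak, against 19.6% of all protein-coding genes. All 5 were among the 9 formins over 100 kb, and 42.9% of all protein-coding genes over 100 kb held one.

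FMN2, a formin of the oocyte spindle and the nervous system, had 0 peaks over 460.8 kb. FMNL2, which acts in lamellipodia and cell migration, had 0 over 314.7 kb. A long gene without a peak was common in the list: 56.4% of all protein-coding genes of over 200 and up to 500 kb, and 60.2% of longer ones, held 0. Over all 10 formins there were 16 peaks in 3547 kb, 0.451 per 100 kb, below the 1.28 per 100 kb of all gene bodies. Their lengths would hold 45.6 peaks at that density and 29.0 at the density of each gene's own chromosome, and the mean counts of their length classes also add up to 29.0. Of the 16 peaks, 8 lay in DAAM1. DAAM1 and DIAPH1 held more peaks than their own chromosome's density gives, 8 against 1.52 and 2 against 1.41. The other 8 formins held fewer. FMN1 held 4 against 10.9, DIAPH3 1 against 4.35 and FHOD3 1 against 2.15. With 0 peaks each, the values were 4.50 for FMN2, 2.44 for FMNL2, 0.889 for DAAM2, 0.471 for DIAPH2 and 0.344 for INF2. Peaks were spread unevenly over genes, so these densities describe the list, and no difference from them was tested.

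Lists of genes related to formins were counted by the name in the list, and the number of genes is also given by gene body where it differs. The formins outside the 10, FHOD1, FMNL1, FMNL3, FHDC1 and GRID2IP, had 0 of 5 named, so that 3 of 15 formins were named in all. Of the profilin genes 2 of 4 were named: PFN2 by 2 peaks and PFN4 by 1. Neither PFN2 peak lay in the gene body, so by body 1 of 4 held a peak.

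The branched-filament arm, which competes with formins for actin, had 8 of 14 genes named. WASF3, an activator of the Arp2/3 complex, had 11 peaks up to a score of 63.3 over 131.3 kb. WASL had 6 up to 92.8, and the Arp2/3 subunit ACTR2 had 5 up to 55.8. Among the other nucleators 3 of 6 were named, and COBL had 8 peaks, as many as DAAM1, up to 54.4 over 300.6 kb. The other named genes, LMOD2 and LMOD3, held 0 peaks in their bodies, while SPIRE1, not named, held 1, so by body 2 of 6 held a peak. In the arm that reads free actin, SRF had 0 peaks, while its cofactors MRTFA and MRTFB, which the list names MKL1 and MKL2, had 3 up to 50.1 and 1 of 51.0. For these lists too the background is the 20.4% of all protein-coding genes by name and 19.6% by body given above; the lists differ in gene length, and their shares were not tested.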

How the data were processed

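The authors deposited 1 list of peaks from the mERG ChIP library in VCaP cells. Its header names MACS peaks on hg19 annotated with HOMER, and the submitters' processing notes name Bowtie2, Picard and HOMER. The MACS version, its threshold and the control library it used are not given in the sources used here. The deposited score of each peak is not scaled to depth. Its scale, -10 log10 p, was inferred from its lowest value. Positions and distances to the TSS, from the peak centre, are in bp as deposited.

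Peaks were taken by the gene name in the list. Gene models were those of GENCODE release 44, lifted to GRCh37, matched by Ensembl identifier or symbol, which found a peak for 4103 of 20162 protein-coding genes. Sequence came from GRCh37: 0 peaks ran past a chromosome end, and 33 peaks, none in a formin, were on sequences outside it and had no window. Motifs were sought in 201 bp windows, since the list gives no summit. The motif search and intervals were tested on simulated data. Tables were handled in pandas 2.3.3 and NumPy 2.4.6 under Python 3.11.15, intervals came from SciPy 1.17.1, and plots from Matplotlib 3.10.9.

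The members and lists were chosen with earlier results of these data known. Named genes were the 10 formins, the lists of related genes, and genes naming a peak inside a formin. The rule for sequences was the strongest peak of each formin with peaks. A few items under these rules, among genes, positions and sequences, are not reported here. Flanking genes and the closest and second strongest DAAM1 peaks were named after values were seen. Alternatives were stronger peaks, peaks by gene body, a distance to the TSS of at most 50 kb or 10 kb, the strongest peak per gene, the annotation with repeats set apart, whole peaks and the ETS core.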

Additional observations from a re-analysis of the deposited data

How the results depend on the processing

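With peaks at or above the median score, the formin peaks fell from 12 to 5, or 0.141 per 100 kb of formin gene body against 0.338, and with peaks within 10 kb of the TSS to 3. With peaks taken by gene body instead of name, the formins with a peak rose from 3 to 5. With repeats set apart in the annotation, the intron share was 58.3% in place of 100%, and with the ETS core in place of GGAA the motif share was 0%. A minimum score of 50 and leaving out peaks centred on a repeat were added after seeing the data. The first left 1 peak, in 1 gene, or 0.0282 per 100 kb, and the second left 7 peaks. These changes follow from fewer peaks being counted or from another definition. Of the remaining values, 13 under planned and 5 under added alternatives stayed within 1.5 times a count or inside the interval of a share, density or median. One of these 5, the density without repeats, was 0.197 per 100 kb, inside its wide interval although the count behind it fell from 12 to 7. DAAM1 had 4 peaks at or above the median score, 5 without repeats and 1 at 50 or more. The median formin score was 36.3 by gene body and 35.6 without repeats. The strongest peak of each gene (43.2) and peaks at or above the list median (45.6, the upper end of the interval) raise it by construction and say nothing of its stability. No paired analysis was possible because there was 1 ChIP library and 1 control library, and no result comes from a test. Without reads or depth, weak peaks in the formins without one could not be sought.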
